A study of Homo sapiens with 45 samples.

Results

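The transcripts of NFYA, NFYB and NFYC, the 3 subunits of the transcription factor NF-Y, were followed across every siRNA group measured in SUDHL6 cells, a human diffuse large B-cell lymphoma line of germinal-centre type. Members were all probes annotated with any of these symbols, 3 of the 19431 symbols of the platform, which gave 4 of the 45013 probes on the array: ILMN_1690325 and ILMN_1713726 for NFYA, ILMN_1668726 for NFYB and ILMN_1810488 for NFYC. Cells received 80 pmol of a SmartPool by nucleoporation, that is, several siRNAs to the same transcript given together, and RNA was taken 20 hours later. The 45 arrays fell into 15 groups. A set whose titles carry the letter A, here set A, held 15 arrays in 5 groups of 3: siNFYB, siNFYB+siFOXM1, siFOXM1, and the controls siNT4+siNT4 and siNT4, with NT standing for non-target. The first set held 30 arrays in 10 groups: siHMGA1, siFOXM1, siTFDP1, siATF5, siHMGA1+siFOXM1 and siHMGA1+siATF5 with 3 arrays each, siHMGA1+siTFDP1 with 4, siTFDP1+siATF5 with 2, and the controls siNT4+siNT4 with 2 and siNT4 with 4. Every array comes from the same cell line, and the controls were nucleoporated too. The labels do not say whether replicates of a group came from separate cultures. Tests therefore measure the spread of these arrays, part or all of which may be technical.

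NF-Y binds the CCAAT box, a short element found in many promoters a little way upstream of the transcription start. NFYB and NFYC carry histone-fold domains and pair with each other, and NFYA joins that dimer and makes the sequence-specific contact with DNA. In B cells NF-Y is known as the factor of the Y box in MHC class II promoters, and in dividing cells it is known for its sites in the promoters of cyclins and other G2/M genes.

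Promoter sequences show where that element stands in genes of this system. Windows of 300 bases, 250 before and 50 from each annotated start, were taken from RefSeq (GRCh38.p14) and searched for CCAAT on both strands, so that ATTGG marks the element read from the other strand. Of 35116 windows of all genes, 34.61% held the element at least once. NFYA had 1 window and NFYC had 3, and each of these 4 held it. A window was not given here for NFYB. The NFYA window and the NFYC window with most copies are shown with that of CCNB2, a mitotic cyclin and a textbook NF-Y target. The CCNB2 window holds 4 copies. Capitals mark CCAAT or ATTGG, all 3 windows are on the + strand, and letters run 5′ to 3′.
NFYA, chr6:41072724-41073023: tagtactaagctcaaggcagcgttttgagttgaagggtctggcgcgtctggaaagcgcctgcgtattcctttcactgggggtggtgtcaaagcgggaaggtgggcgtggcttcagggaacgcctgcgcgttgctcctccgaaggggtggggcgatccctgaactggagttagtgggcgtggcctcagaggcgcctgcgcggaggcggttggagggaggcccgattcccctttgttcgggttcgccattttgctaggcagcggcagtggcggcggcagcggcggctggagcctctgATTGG
NFYC, chr1:40709116-40709415: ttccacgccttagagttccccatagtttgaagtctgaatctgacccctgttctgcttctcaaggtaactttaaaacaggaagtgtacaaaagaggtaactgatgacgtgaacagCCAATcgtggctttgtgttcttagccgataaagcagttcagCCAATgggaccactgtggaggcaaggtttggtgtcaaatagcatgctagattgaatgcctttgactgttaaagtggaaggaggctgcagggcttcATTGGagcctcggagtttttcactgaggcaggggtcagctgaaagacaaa
CCNB2, chr15:59104896-59105195: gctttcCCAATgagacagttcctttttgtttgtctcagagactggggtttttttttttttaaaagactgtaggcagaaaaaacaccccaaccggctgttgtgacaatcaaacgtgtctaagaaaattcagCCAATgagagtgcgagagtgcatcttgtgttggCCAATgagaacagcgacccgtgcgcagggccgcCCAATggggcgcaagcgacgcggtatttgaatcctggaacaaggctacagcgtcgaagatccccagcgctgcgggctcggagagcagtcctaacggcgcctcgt
In CCNB2 the copies began 244, 120, 87 and 54 bases before the start. In the NFYC window they began 136 and 95 bases before the start and at base 1 of the transcript, and in NFYA the only copy began at base 46 of the transcript. A match is a run of letters and does not show that NF-Y binds there.

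The arrays carried the identity of the labelled cells. Of the B-cell markers with a probe, 6 of 7 were above background (a log2 value over the array median by more than 0.5 on at least 3 arrays), as were 5 of 5 germinal-centre markers, against 0 of 6 T-cell markers and 2 of 6 myeloid markers. CD14 and FCGR3A were those 2. One array, siTFDP1+siATF5 replicate 3, stood apart: 44.5% of its probes exceeded the array median by more than 0.5, against 24.2% to 30.6% on the other 44, and its median correlation with the other arrays was 0.783, against 0.975 to 0.993. It was left out of every comparison but that of its own group, where values are given with and without it.

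The subunits differed in how far their probes stood above background, which sets what each can show. Distances were taken from the median of the same array, and array medians lay between 6.95 and 6.98 on the 44 arrays. The NFYC probe was a median of 2.05 log2 above the array median (lowest 1.82, highest 2.34) and passed 0.5 on all 44 arrays. The brighter NFYA probe, ILMN_1690325, was 0.54 above it (0.20 to 0.85) and passed on 28 arrays. The NFYB probe was 0.45 above it (0.10 to 1.00) and passed on 20 arrays. The other NFYA probe, ILMN_1713726, lay below it (median -0.13, range -0.28 to -0.03) and passed on 0 arrays, although the platform annotation gives both NFYA probes the same RefSeq transcript. So 3 of the 4 probes met the background rule, and only NFYC stood clear of it throughout. Probes differ in how they bind, so these distances do not rank the transcripts.

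**Figure D1:**
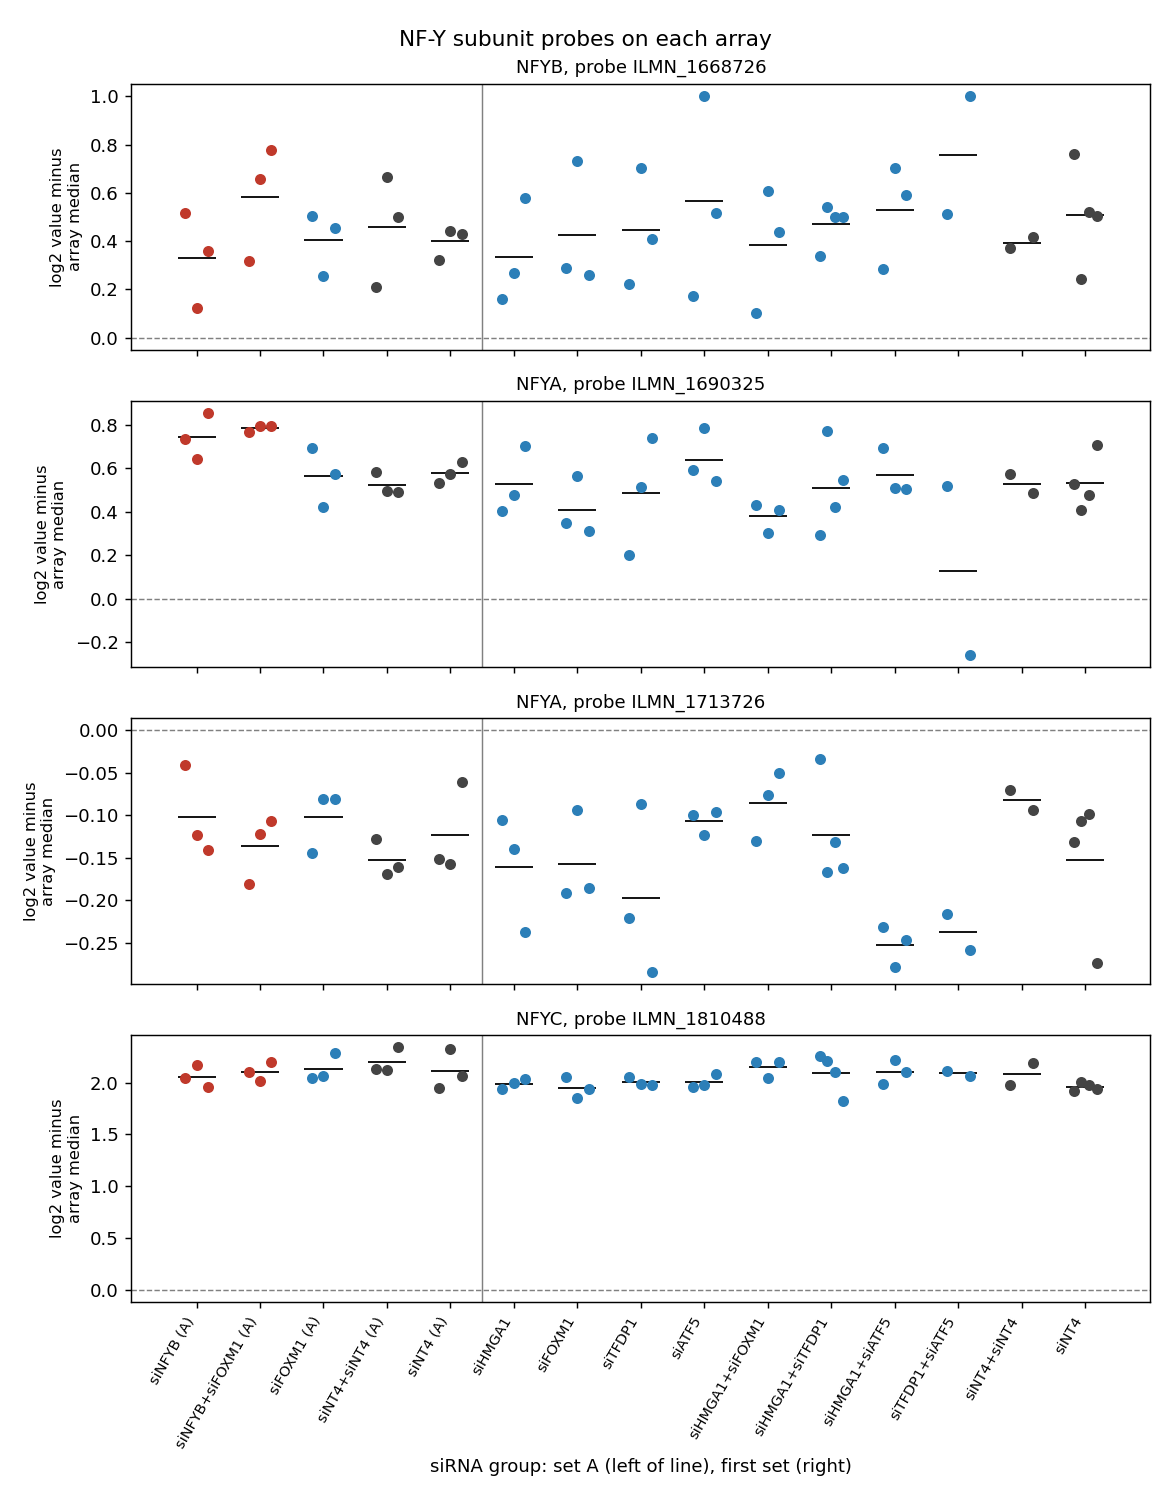
Distance of each NF-Y subunit probe from the array median (log2, y axis) in every siRNA group (x axis), set A left of the vertical line and the first set right of it. Points are single arrays, black bars are group means and the dashed line is the array median; NFYC lies 1.82 to 2.34 above it on 44 arrays, while NFYB lies 0.10 to 1.00 above it.

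NFYB was the targeted transcript in 2 groups of set A, and its probe did not separate either from its control. The siNFYB arrays read 7.49, 7.10 and 7.32 (log2, replicates 1 to 3), against 7.30, 7.41 and 7.40 on the siNT4 arrays. The siNFYB+siFOXM1 arrays read 7.29, 7.62 and 7.75, against 7.19, 7.63 and 7.47 on the siNT4+siNT4 arrays. Groups overlapped in both comparisons: 1 siNFYB array was above every siNT4 array, and the highest value of set A was on a siNFYB+siFOXM1 array.

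For siNFYB the mean was 7.30 ± 0.19, against 7.37 ± 0.06 for siNT4 (SD, n = 3 each), a log2 change of -0.07 (SE 0.16, 95% interval -0.39 to 0.26, limma adjusted p = 1). For siNFYB+siFOXM1 it was 7.55 ± 0.24, against 7.43 ± 0.22 for siNT4+siNT4 (SD, n = 3 each), a change of 0.12 (SE 0.16, interval -0.20 to 0.45, adjusted p = 1). The siNFYB group had the lowest NFYB mean of the 15 groups and the siNFYB+siFOXM1 group the highest of those on the 44 arrays. On the 44 arrays group means of NFYB spanned 0.25, about the size of the pooled SD between arrays of a group, which was 0.22. Neighbours in the order of groups therefore did not differ beyond their spread.

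The probe stood near the array median, which may leave little room for a fall to be seen. In the siNT4 arrays of set A, NFYB averaged 0.40 above the array median, so a fall to that median would read as a change of that size, just past the lower bound of -0.39 for siNFYB. In the siNT4+siNT4 arrays it averaged 0.46 above it, and a fall to the median lies well outside the interval for siNFYB+siFOXM1, whose lower bound is -0.20. With set A fitted alone, where the spread is estimated from its 15 arrays, the interval for siNFYB was -0.28 to 0.15 and that for siNFYB+siFOXM1 was -0.09 to 0.34, so neither reached a fall to the median. Smaller falls of NFYB, within these bounds, were not detectable. What this probe reads with its transcript lost is not known, and it need not be the array median. These bounds therefore do not show whether NFYB was silenced.

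No probe of the array passed the threshold in either siNFYB comparison. The percent called was 0 of 45013 probes for siNFYB and 0 for siNFYB+siFOXM1, with 732 and 920 probes at an unadjusted p under 0.05 in limma. Where nothing differs, a share of about 0.05 of probes passes that cut, so both counts were low. With set A fitted alone they were 2006 and 2258, with 0 probes called in either. The SE of NFYB in siNFYB was then 0.11 in place of 0.16, while that of NFYC was 0.11 in place of 0.10. Intervals and adjusted p-values of the fit over both sets may thus be too cautious for part of the probes of set A. FOXM1, the forkhead factor that the second pool of the pair targets, averaged 8.56 on the siNFYB+siFOXM1 arrays, against 8.82 on the siNT4+siNT4 arrays, for its brighter probe, a change of -0.26 (adjusted p = 1), and the change at its dimmer probe was -0.20 (adjusted p = 1).

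NFYA, the DNA-contacting subunit, was higher without overlap in both siNFYB silencings at its brighter probe, though neither difference passed the test. The siNFYB arrays read 7.71, 7.62 and 7.81, against 7.51, 7.54 and 7.59 on the siNT4 arrays. The siNFYB+siFOXM1 arrays read 7.74, 7.76 and 7.77, against 7.57, 7.46 and 7.46 on the siNT4+siNT4 arrays. All 6 arrays with siNFYB were above all 6 controls of set A, by a thin margin: the lowest read 7.62 and the highest control 7.59. How many of all probes separate in this way was not counted, so this separation has no background to be judged against. The siFOXM1 arrays of set A read 7.67, 7.38 and 7.55, and the highest of these was above 1 of the 6 siNFYB arrays.

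The NFYA mean was 7.71 ± 0.10 for siNFYB, against 7.55 ± 0.04 for siNT4 (SD, n = 3 each), a change of 0.16 (SE 0.11, interval -0.06 to 0.39, limma adjusted p = 1). It was 7.75 ± 0.02 for siNFYB+siFOXM1, against 7.50 ± 0.06 for siNT4+siNT4, a change of 0.26 (SE 0.11, interval 0.03 to 0.48, limma adjusted p = 1). The comparisons share no control arrays. Groups of 3 that do not overlap are common here. Against the control of each, 4.87% of all probes were higher without overlap in siNFYB and 4.99% in siNFYB+siFOXM1. In both, 98 of 45013 (0.218%) were so, no more than the product of these shares. Among the 13679 probes above background it was 35, or 0.256%. With set A fitted alone, the interval was 0.0005 to 0.33 for siNFYB (limma adjusted p = 1) and 0.10 to 0.42 for siNFYB+siFOXM1 (limma adjusted p = 0.981). An exact permutation test of 3 arrays against 3 cannot go below a two-sided p of 0.1.

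The mean of the 2 NFYA changes, a contrast chosen after seeing the data, was 0.21 (SE 0.08, interval 0.05 to 0.37, limma adjusted p = 1), and its interval with set A fitted alone was 0.10 to 0.33 (limma adjusted p = 0.999). The same mean was 0.03 for NFYB (interval -0.20 to 0.26). Arrays of the first set reached the same level: siATF5 replicate 2 and siHMGA1+siTFDP1 replicate 2 each read 7.75 for NFYA. The brighter NFYA probe did not differ beyond its spread in siFOXM1 of set A (change -0.01, adjusted p = 1). At the dim NFYA probe, which lay under the array median, the changes were 0.02 in siNFYB and 0.01 in siNFYB+siFOXM1.

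NFYC, the partner of NFYB in the histone-fold dimer, had a probe clear of background on every array and no separation in either siNFYB comparison. The siNFYB arrays read 9.02, 9.14 and 8.92, against 8.93, 9.30 and 9.03 on the siNT4 arrays. The siNFYB+siFOXM1 arrays read 9.08, 8.98 and 9.17, against 9.11, 9.09 and 9.31 on the siNT4+siNT4 arrays. Both pairs of groups overlapped. The changes were -0.06 (SE 0.10, interval -0.26 to 0.15, adjusted p = 1) and -0.10 (SE 0.10, interval -0.31 to 0.11, adjusted p = 1), so falls larger than those lower bounds lie outside the intervals.

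**Figure D2:**
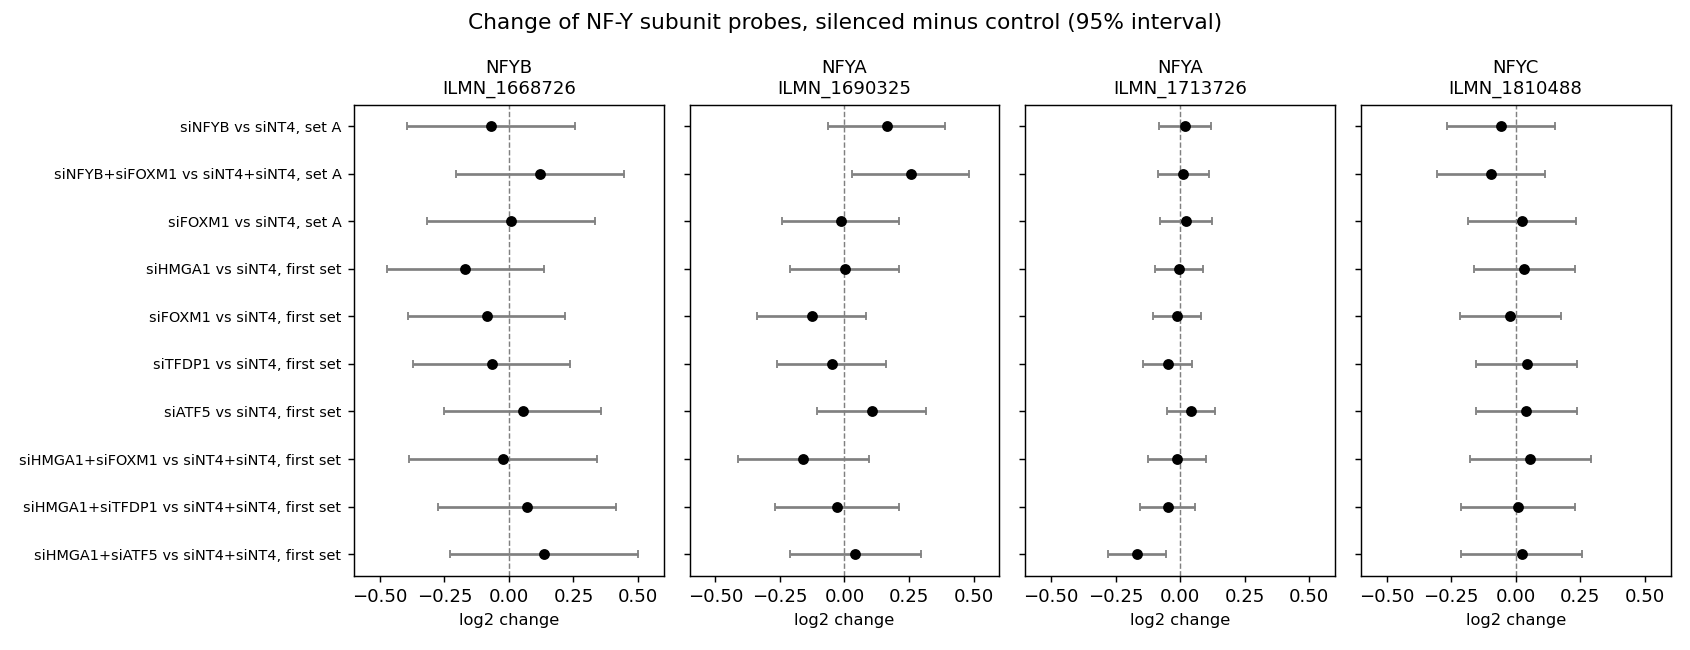
Log2 change of each NF-Y subunit probe (x axis) in 10 silencing comparisons (rows), with points for the fitted change and bars for its 95% interval from limma on 44 arrays. Only NFYA ILMN_1690325 in siNFYB+siFOXM1 (0.03 to 0.48) and NFYA ILMN_1713726 in siHMGA1+siATF5 have intervals off 0, and both have adjusted p-values far over 0.05.

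The pair's effect on the subunits was not separable from the sum of its single silencings. The departure from that sum was 0.11 for the brighter NFYA probe, 0.18 for NFYB and -0.07 for NFYC (adjusted p = 1 for each). Its intervals were -0.34 to 0.56, -0.47 to 0.83 and -0.48 to 0.35, too wide to show that the effects add. The siFOXM1 change in set A minus that in the first set was 0.11 for NFYA, 0.09 for NFYB and 0.05 for NFYC (adjusted p = 0.999 for each). Between the controls of set A, siNT4+siNT4 minus siNT4 was -0.05 for NFYA, 0.06 for NFYB and 0.09 for NFYC, and in the first set it was 0.0041, -0.11 and 0.13, with 0 NF-Y probes called in either, at 0.0244% and 0% of all probes called.

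In the first set, where NFYB was not targeted, 0 of the 4 subunit probes were called in any of the 7 comparisons on the 44 arrays. The percent of all probes called was 0.00222 for siHMGA1, 0.00889 for siFOXM1, 0.0111 for siTFDP1, 2.61 for siATF5, 0.00444 for siHMGA1+siFOXM1, 0 for siHMGA1+siTFDP1 and 0.00222 for siHMGA1+siATF5. HMGA1 is a chromatin architectural protein, TFDP1 the partner of E2F factors and ATF5 a stress-responsive bZIP factor.

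The SD of NFYB within a group ran from 0.03 to 0.41 in the first set, where siATF5 had the highest, and from 0.06 to 0.24 in set A. First-set readings were 7.14, 7.24 and 7.56 for siHMGA1, 7.25, 7.70 and 7.23 for siFOXM1, 7.19, 7.67 and 7.39 for siTFDP1 and 7.14, 7.97 and 7.49 for siATF5, against 7.73, 7.21, 7.50 and 7.49 for siNT4. Each of these groups overlapped its control. The paired silencings read 7.06, 7.57 and 7.41 for siHMGA1+siFOXM1, 7.29, 7.53, 7.47 and 7.48 for siHMGA1+siTFDP1 and 7.27, 7.69 and 7.57 for siHMGA1+siATF5, against 7.35 and 7.39 for siNT4+siNT4. Changes ran from -0.17 in siHMGA1 (interval -0.47 to 0.14) to 0.14 in siHMGA1+siATF5.

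NFYA at its brighter probe came nearest to a separation in siHMGA1+siFOXM1. Those arrays read 7.39, 7.27 and 7.38, against 7.56 and 7.46 on the siNT4+siNT4 arrays, a change of -0.16 (adjusted p = 0.841). The groups did not overlap, which held for 9.91% of all probes in that direction. Its other changes were 0.0007 in siHMGA1, -0.13 in siFOXM1, -0.05 in siTFDP1, 0.11 in siATF5, -0.03 in siHMGA1+siTFDP1 and 0.04 in siHMGA1+siATF5, all with overlapping groups. On the 44 arrays, group means of this probe spanned 0.41 and the pooled SD within groups was 0.14. The siNFYB+siFOXM1 and siNFYB groups of set A were the highest and second highest, at 7.75 and 7.71, and siHMGA1+siFOXM1 the lowest, at 7.35.

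The dim NFYA probe was lower without overlap in siHMGA1+siATF5, where it read 6.75, 6.70 and 6.73, against 6.91 and 6.88 on the siNT4+siNT4 arrays. The change was -0.17 (SE 0.06, limma adjusted p = 0.926), in a direction in which 10.9% of all probes did not overlap. All these values lay under the array median. The brighter probe of the same gene stood at 0.04, with overlapping groups.

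NFYC stayed in a narrow band in the first set. It read 8.92, 8.97 and 9.01 for siHMGA1, 9.01, 8.82 and 8.91 for siFOXM1, 9.02, 8.95 and 8.96 for siTFDP1 and 8.93, 8.94 and 9.06 for siATF5, against 8.89, 8.98, 8.95 and 8.92 for siNT4. The paired silencings lay between 8.80 and 9.21, against 8.96 and 9.16 for siNT4+siNT4. Over the 11 silencing comparisons its changes ran from -0.10 to 0.06, and the smallest unadjusted limma p was 0.356. Its group means spanned 0.26, with a pooled SD of 0.12, from 8.91 in siFOXM1 of the first set to 9.17 in siNT4+siNT4 of set A.

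The siTFDP1+siATF5 pair was the only comparison in which NF-Y probes were called, and the calls were lost without the array that stood apart. Its replicates 2 and 3 read 7.50 and 6.63 for NFYA at the brighter probe, against 7.56 and 7.46 for siNT4+siNT4. The dim probe read 6.77 and 6.63, against 6.91 and 6.88 for siNT4+siNT4. On replicate 3 both NFYA probes held the lowest value of the array, 6.63, which 16823 of its probes share, so they were at a floor there and the sizes are not exact. With both arrays the fitted changes were -0.44 (adjusted p = 0.045) at the brighter probe and -0.20 (adjusted p = 0.01) at the dim one, while 41% of all probes were called in the same comparison, 15% as lower. NFYB read 7.50 and 7.89, against 7.35 and 7.39 for siNT4+siNT4, a change of 0.32 (adjusted p = 0.23), and NFYC differed by -0.03 (adjusted p = 0.85). Without replicate 3, 1 array of the pair remains and its spread is assumed to be that of the other groups; the changes in NFYA were then -0.0072 at the brighter probe and -0.13 at the dim one, both with adjusted p = 1. Leaving out a control array, which leaves 1 in that group, moved the calls too, to 0 without siNT4+siNT4 replicate 2 and to 1 without siNT4+siNT4 replicate 3.

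Correlations between the subunits differed in sign and size. Over 44 arrays, after subtracting each set's mean, Pearson's r was 0.39 between NFYA and NFYB (Spearman's rho 0.39), -0.24 between NFYA and NFYC (rho -0.29) and -0.03 between NFYB and NFYC (rho -0.02), with ILMN_1690325 standing for NFYA. Of 10641 probes of other genes above background, 106 had a higher r with NFYA than NFYB had, and 180 had a higher r with NFYB than NFYA had. Leaving out the 2 arrays farthest from the median of the first-named gene gave 0.35, -0.35 and 0.08. The arrays share groups, cell line and normalization, so these are descriptions. Among those 10641 probes, the ones most like NFYA were COX7B, a cytochrome c oxidase subunit (r = 0.57), ERC1 (0.57) and TSPAN14 (0.55). Most like NFYB were LPAR2, a lysophosphatidic acid receptor (0.64), SMG6, an endonuclease of nonsense-mediated decay (0.61), and CD163L1 (0.61). Most like NFYC were MTX2, a mitochondrial outer-membrane protein (0.54), TVP23B (0.51) and DPP9, a dipeptidyl peptidase (0.50). The percentile of r at 99% over the candidates was 0.39 for NFYA, 0.43 for NFYB and 0.39 for NFYC. By Spearman's rho, TSPAN14 ranked only 19 for NFYA (rho 0.47) and SMG6 only 30 for NFYB (rho 0.47). The other genes named ranked from 1 to 7.

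Genes around NF-Y were read from 6 lists in both siNFYB silencings, taking the brightest probe above background for each gene. In none of the lists did a gene pass the test in either comparison, at a background of 0% of all probes called, and each gene below had adjusted p = 1. The median change of all probes above background was -0.0007 in siNFYB and 0.0004 in siNFYB+siFOXM1. Named are the 2 genes of smallest p in each list, with the change and its SE from limma.

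NF-Y partners, factors that bind beside or with NF-Y, had 14 of 16 members above background and the element in 31.82% of their 22 windows. In siNFYB 7 changes were above 0 and 7 below. In siNFYB+siFOXM1 4 were above and 10 below (median -0.06), and in siFOXM1 of set A also 4 and 10 (median -0.01). USF2, a factor of E boxes, differed by -0.20 in siNFYB (SE 0.14), and CIITA, the MHC class II coactivator, by -0.11 (SE 0.10). In siNFYB+siFOXM1, E2F1 differed by -0.30 (SE 0.17) and RFXAP, a subunit of the RFX factor of the X box, by 0.17 (SE 0.12). Histone-fold relatives had 12 of 15 members above background and the element in 40% of their 20 windows. Their median changes were 0.02 in siNFYB and -0.02 in siNFYB+siFOXM1. DR1 and DRAP1, which form the histone-fold repressor NC2, differed by -0.13 (SE 0.12) and 0.10 (SE 0.10) in siNFYB. POLE4, a histone-fold subunit of DNA polymerase epsilon, differed by 0.19 (SE 0.09) and TAF6, a TFIID subunit, by 0.15 (SE 0.13) in siNFYB+siFOXM1.

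Cell-cycle genes with CCAAT boxes were all above background, 18 of 18. Promoter windows were at hand for 15 of them, and 76% of these 25 windows held the element. In siNFYB 5 changes were above 0 and 13 below (median -0.04), led by the phosphatases CDC25A at -0.11 (SE 0.10) and CDC25C at -0.15 (SE 0.15). In siNFYB+siFOXM1 7 were above 0 and 11 below (median -0.0047). TOP2A, the mitotic topoisomerase, averaged 11.59 ± 0.09 on the siNFYB+siFOXM1 arrays, against 11.23 ± 0.05 on the siNT4+siNT4 arrays (SD, n = 3 each), a change of 0.35 (SE 0.10, limma adjusted p = 1). FOXM1, also on that list, is the other target of the pair and is given above. TOP2A differed by -0.04 in siNFYB and by 0.22 in siFOXM1 of set A (adjusted p = 1 in each). CCNB2, whose promoter is shown above, averaged 10.54 ± 0.03 on the siNFYB arrays, against 10.60 ± 0.18 on the siNT4 arrays, and 10.67 ± 0.02 on the siNFYB+siFOXM1 arrays, against 10.71 ± 0.11 on the siNT4+siNT4 arrays (SD, n = 3 each).

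MHC class II genes had 10 of 11 members above background and the element in 81.82% of their 11 windows. In siNFYB 3 changes were above 0 and 7 below (median -0.06), and HLA-DMA, a subunit of the peptide-loading chaperone, averaged 11.45 ± 0.06, against 11.62 ± 0.13 on the siNT4 arrays (SD, n = 3 each), a change of -0.16 (SE 0.12). HLA-DPA1, an alpha chain, differed by -0.10 in siNFYB (SE 0.09) and by -0.10 in siNFYB+siFOXM1 (SE 0.09). HLA-DQB1, a beta chain, differed by 0.14 in siNFYB+siFOXM1 (SE 0.15), where 6 changes were above 0 and 4 below. Class II genes are close in sequence, and probes to them may read more than 1 gene.

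ER and chaperone genes had 10 of 12 members above background and the element in 81.25% of their 16 windows. Changes in siNFYB were above 0 for 4 and below for 6 (median -0.02), and in siNFYB+siFOXM1 above 0 for 1 and below for 9 (median -0.07). In siFOXM1 of set A, without siNFYB, 2 were above 0 and 8 below (median -0.06). HSPD1, the mitochondrial chaperonin, differed by 0.17 (SE 0.09) and XBP1, a factor of the unfolded protein response, by -0.16 (SE 0.10) in siNFYB. In siNFYB+siFOXM1 XBP1 differed by -0.14 (SE 0.10), and HSPA1A, an inducible HSP70, by -0.27 (SE 0.13). Lipid genes had 6 of 10 members above background, and the element stood in 83.33% of the 6 windows at hand, from 5 genes. SQLE, the squalene epoxidase, differed by 0.20 (SE 0.12) and FASN, the fatty acid synthase, by -0.07 (SE 0.18) in siNFYB. In siNFYB+siFOXM1 5 changes were above 0 and 1 below (median 0.07), with FDPS at 0.23 (SE 0.15) and HMGCS1 at 0.16 (SE 0.14), both enzymes of sterol synthesis. In siFOXM1 of set A 3 lipid genes were above 0 and 3 below.

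**Figure D3:**
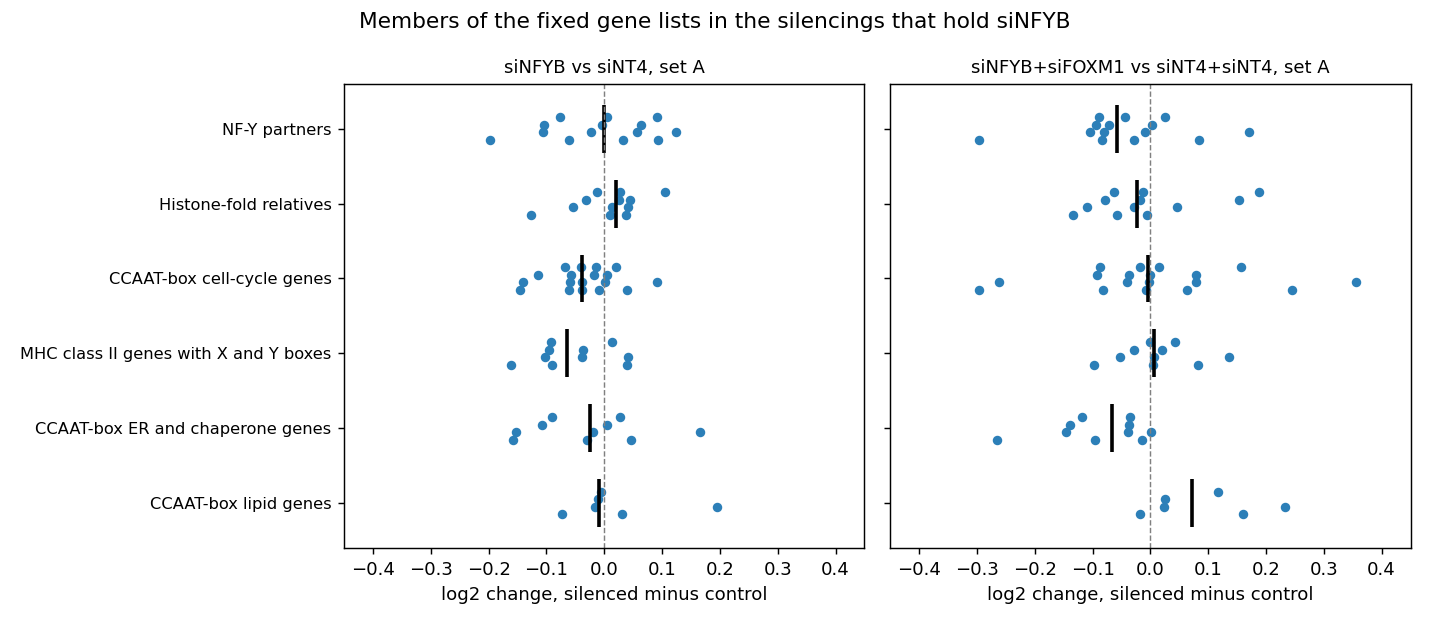
Log2 changes of genes of the 6 NF-Y lists (y axis) in siNFYB and in siNFYB+siFOXM1, each against its control of set A. Points are genes above background and black bars are list medians, which lie between -0.07 and 0.07, with TOP2A at 0.35 the highest point.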

How the data were processed

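The data are log2 values that the authors deposited for 45013 probes of Illumina bead arrays. No method of background correction or normalization is named in the sources used here, and differences near the array median may be compressed. A deposited raw table was not used, because its 90 columns could not be tied to samples. Groups and replicate numbers came from the titles, per the labels. Of the probes, 28746 had 1 symbol in the platform annotation, 8 several and 16259 none; 0 symbols differed from RefSeq. The members, the lists and the array left out were chosen with earlier results of these data known.

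Each comparison was a contrast in limma 3.58.1 (R 4.3.3; lmFit with a mean per group, eBayes with trend, two-sided, Benjamini-Hochberg over all probes, threshold 0.05) on 44 arrays, or 45 for siTFDP1+siATF5. There were 11 silencing comparisons, with siNT4 as control for single pools and siNT4+siNT4 for pairs, always within a set, and 4 further contrasts. Named were all NF-Y probes, the 3 most correlated genes of each and, in each list, the 2 genes of smallest p, since none passed. TOP2A in siNFYB and siFOXM1 and CCNB2 were added after their values were seen. On simulated data the fit recovered 97.6% of changes of 1 log2 in siNFYB and 97.8% in siNFYB+siFOXM1. Of changes of 0.5 log2 it recovered 52.4% and 55.6%, and smaller changes were not simulated. Among its calls 3.35% and 6.23% were false. The simulation drew independent normal noise and shifted 200 probes above background at once by the full size. The NFYB probe is dim and 0 probes were called in the real comparisons, so these rates need not hold for it. No 2 arrays held identical values. The number of arrays limits the precision.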

Additional observations from a re-analysis of the deposited data

How the results depend on the processing

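Outside siTFDP1+siATF5, the 56 changes of NF-Y probes were recomputed under alternatives (all 45 arrays, quantile normalization, no trend, a robust fit, only probes above background, a covariate for each array's share of probes above background, 1 set alone, a replicate block, and each array left out), which gave 838 values. Of these 0 passed the threshold (smallest adjusted p 0.466), and 74 had the other sign, all of changes no larger than 0.11. NFYB ran from -0.16 to 0.03 in siNFYB, lowest without siNFYB replicate 1 and highest without siNFYB replicate 2. In siNFYB+siFOXM1 it ran from 0.0013 without siNT4+siNT4 replicate 1 to 0.25 without siNFYB+siFOXM1 replicate 1. NFYC ran from -0.13 to 0.05 in siNFYB and from -0.14 to -0.03 in siNFYB+siFOXM1. NFYA at its brighter probe ran from 0.11 to 0.21 in siNFYB and from 0.24 to 0.29 in siNFYB+siFOXM1. In siTFDP1+siATF5, 2 NF-Y probes were called. It was 0 on 44 arrays, 0 after quantile normalization, 0 with the covariate, 1 over probes above background, 1 within the set, and 0 to 2 with 1 array left out, where the group left with 1 array is assumed to vary like the others: 0 without siTFDP1+siATF5 replicate 3, 0 without siNT4+siNT4 replicate 2 and 1 without siNT4+siNT4 replicate 3. Replicate 3 of the pair decides the first of these, and the cause of the others was not tested.

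With the replicate number as a block, 2 NF-Y probes were called in siTFDP1+siATF5 and 0 in every other comparison. Same-numbered arrays of siNFYB and siNT4 had a mean correlation of deviations of 0.06, against -0.03 for arrays of other numbers. For siNFYB+siFOXM1 and siNT4+siNT4 the mean was 0.14, against -0.07. In the first set the same-number mean ran from 0.02 in siHMGA1+siATF5 to 0.21 in siTFDP1 and 0.27 in siHMGA1+siFOXM1. It was above the other-number mean in every comparison checked. The numbers were not taken to pair samples in the main fit, and a shared batch by number was not tested. All list results stayed at 0 genes called. Counts over all probes moved more: 1173 in siATF5 became 5 with the covariate, 18455 in siTFDP1+siATF5 became 0 on 44 arrays, 4 in siFOXM1 of the first set ranged from 0 to 13, 5 in siTFDP1 from 1 to 10, 2 in siHMGA1+siFOXM1 from 0 to 2, 1 in siHMGA1+siATF5 from 1 to 2, and 0 in siNFYB+siFOXM1 and in siHMGA1+siTFDP1 from 0 to 1. The control contrast of set A had 11 calls, which became 152 with the replicate block and ranged from 0 to 446.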
